A study of Rattus norvegicus with 36 samples.

Results

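The 4 neuropeptide genes Tac1, Calca, Calcb and Sst were followed in rat dorsal root ganglia after ligation of a spinal nerve. Tac1 encodes the precursor of substance P and neurokinin A, Calca and Calcb encode the 2 forms of calcitonin gene-related peptide (CGRP, alpha and beta), and Sst encodes somatostatin. All probe sets whose platform annotation named 1 of these symbols and no other gene were taken, which gave 7 of 26379 probe sets: 2 for Tac1, 2 for Calca, 1 for Calcb and 2 for Sst, all on chip A. No probe set was annotated to 1 of the 4 genes together with another gene.

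Substance P and CGRP are made in the cell bodies of small sensory neurons, many of which respond to painful stimuli, and are released from their endings in the spinal cord and in peripheral tissue, where they act through the tachykinin receptors and through the calcitonin receptor-like receptor. Somatostatin marks another set of small sensory neurons and acts through inhibitory receptors. Loss of substance P, CGRP and somatostatin from sensory neurons after their peripheral axon is cut or tied is a textbook feature of axotomy.

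Hybridisation of total RNA was read on 3 Affymetrix rat chip types (RG_U34 A, B and C), each with its own probe sets. The 3 conditions were the L5 ganglia of rats with a ligated L5 spinal nerve, the neighbouring L4 ganglia of such rats, and ganglia of sham-operated rats, for which L4 and L5 were pooled together. Each condition was collected at 50 and at 28 days after surgery, as 1 pool of ganglia per condition and day, with 30 rats in a pool where the labels give a number, and RNA of every pool went onto 2 arrays per chip type, 36 arrays in all. The labels give no strain, sex or age of the rats.

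According to the design text, pooling left the study without biological replication on the arrays. For each condition, the pools of 50 and 28 days therefore served as its replicates (n = 2 per condition). That left 2 residual degrees of freedom. limma moderated the spread between a probe set's own pools toward the spread of other probe sets of similar intensity. The peptide probe sets thereby had 11.95 degrees of freedom in total, so p-values rest largely on this shared spread. L5 and L4 ganglia came from operated rats and share surgery, while sham pools mix both segments. Of 10 general neuronal markers 9 were bright enough to be tested, and 4 of 7 axon injury markers (Vip, Npy, Atf3 and Gal) rose in L5 against sham by limma, where 0.229% of all tested probe sets were called higher.

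The annotated start regions of 3 of the 4 genes were in the RefSeq promoter table (build GRCr8), from 250 bases before to 50 bases after the start, each read along its gene. They are shown because Tac1, Calca and Sst had lower values together in the ligated ganglion, and because cAMP-responsive elements are textbook control elements of these genes. Capitals mark matches, on either strand, to the cAMP response element TGACGTCA, to its shorter form TGACG (reverse complement CGTCA, which the longer motif contains) and to the E-box CACGTG.
Tac1, chr4:36645333-36645632, plus strand: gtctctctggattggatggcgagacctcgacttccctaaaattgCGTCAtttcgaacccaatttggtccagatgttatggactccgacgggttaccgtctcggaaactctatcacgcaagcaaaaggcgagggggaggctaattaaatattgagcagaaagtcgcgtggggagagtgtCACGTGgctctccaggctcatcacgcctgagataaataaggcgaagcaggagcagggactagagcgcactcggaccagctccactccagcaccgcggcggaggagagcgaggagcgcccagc
Calca, chr1:178317480-178317779, minus strand: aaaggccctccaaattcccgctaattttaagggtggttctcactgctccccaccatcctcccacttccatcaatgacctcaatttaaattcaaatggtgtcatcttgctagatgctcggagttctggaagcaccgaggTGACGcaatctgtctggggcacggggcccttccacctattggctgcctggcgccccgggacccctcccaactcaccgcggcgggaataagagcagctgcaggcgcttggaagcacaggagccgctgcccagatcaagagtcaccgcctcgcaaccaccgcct
Sst, chr11:90461296-90461595, plus strand: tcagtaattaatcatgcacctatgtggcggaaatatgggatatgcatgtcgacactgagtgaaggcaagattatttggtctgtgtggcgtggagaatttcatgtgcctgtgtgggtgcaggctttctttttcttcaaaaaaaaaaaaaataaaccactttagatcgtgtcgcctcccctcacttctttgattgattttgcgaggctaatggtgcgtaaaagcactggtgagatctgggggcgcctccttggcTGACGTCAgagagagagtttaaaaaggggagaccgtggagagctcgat
The window of Sst held TGACGTCA at bases 3 to 10 after the annotated start. Whether transcripts begin at that base was not checked here. Of the 33469 windows in the table, 1.8% hold TGACGTCA. Calca held TGACG on its own strand from base -112 to -108, and Tac1 held it on the other strand from -206 to -202. TGACG is found in 21.2% of all windows. Tac1 also held CACGTG from -72 to -67, which 6.4% of windows have. A match describes the letters of a window and does not show binding. Any part of these elements in the L5 values was not tested, and Calcb had no window to set beside them.

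Signals of the substance P precursor were lowest in the ligated ganglion. The brighter Tac1 probe set (M15191_s_at) read 1711.4 and 2198.7 on the L5 arrays of 50 days and 1213 and 1222.7 at 28 days. In L4 it read 2968.9 and 2699 at 50 days and 3481.8 and 3291.8 at 28 days, and in sham 2595.5 and 2734.6 at 50 days and 2807.6 and 2875.2 at 28 days. All 4 L5 arrays lay below every L4 and every sham array, and the L5 pool of 28 days was the lowest of the 6. Pool means averaged 1586 ± 521 in L5, 3110 ± 391 in L4 and 2753 ± 125 in sham (SD, n = 2 pools each). The L4 and sham means differed by less than the larger SD of these pools, whereas L5 stood apart from both.

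The dimmer Tac1 probe set (X56306_s_at) showed the same order of L5 below the others. It read 117.9 and 196.3 in L5 at 50 days and 108.6 and 98.2 at 28 days. It read 245.4 and 272.1 in L4 at 50 days and 303 and 306.4 at 28 days, against 355.1 and 332.6 in sham at 50 days and 328.2 and 238.4 at 28 days. Again no L5 array reached the lowest L4 or sham array. In L5 against sham this probe set fell by 1.22 ± 0.23 on the log2 scale (limma, adjusted p = 0.0405), to 42.9% of the sham level, and it fell by 1.08 ± 0.23 in L5 against L4 (adjusted p = 0.0471). Fold changes here are on the scale of log2(signal + pseudocount), which understates changes of dim probe sets.

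For M15191_s_at the difference was -0.83 ± 0.22 in L5 against sham (limma, adjusted p = 0.106) and -1.004 ± 0.22 in L5 against L4 (adjusted p = 0.0537), so this brighter probe set missed the threshold of 0.05 in both. Among the 6 peptide probe sets bright enough to be tested, X56306_s_at was the only one called in either comparison. Over all 15721 tested probe sets, 0.534% were called lower in L5 against sham and 1.01% in L5 against L4. The call of X56306_s_at against sham was lost without the sham pool of 50 days (adjusted p = 0.209) or of 28 days (adjusted p = 0.165), and the call against L4 without the L4 pool of 28 days (adjusted p = 0.265). Both calls were also lost with quantile normalization (adjusted p = 0.0632 against sham and 0.0722 against L4), with no filter (0.0773 and 0.0867), with no intensity trend (0.171 and 0.169) and with the first (0.119 and 0.167) or second (0.226 and 0.201) arrays alone. The call against L4 was lost as well with the pseudocount at the 40th percentile (adjusted p = 0.0521) and without the chip B array whose labels differ (adjusted p = 0.051). Over all 19 alternatives the difference ran from -1.69 to -0.95 against sham, called in 12, and from -1.69 to -0.77 against L4, called in 11. In pooled tissue, fewer cells of a type and less RNA per cell cannot be told apart.

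All 4 L5 arrays lay below all 4 sham arrays for 2 of the 7 peptide probe sets, both of Tac1; 7.49% of tested chip A probe sets did so. All 4 L5 arrays lay below all 4 L4 arrays for 3 of the 7, both Tac1 probe sets and M11597_at of Calca, where 9.27% of tested chip A probe sets did so.

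**Figure D1:**
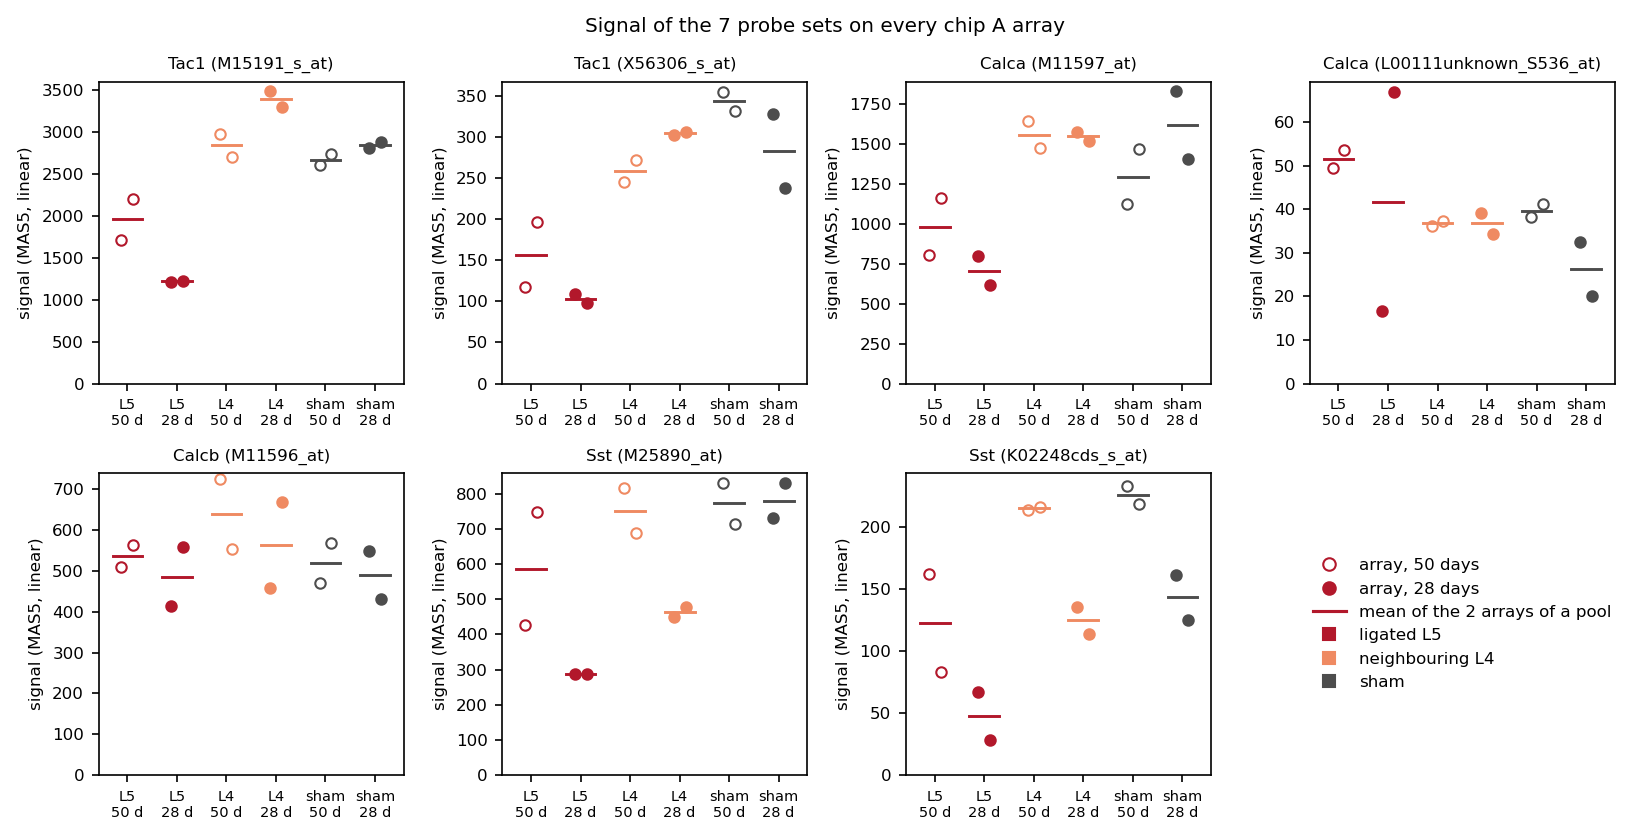
Linear MAS5 signal (vertical axis) of each of the 7 peptide probe sets on every chip A array, by ganglion and day; open circles are arrays of 50 days, filled circles arrays of 28 days, and lines the mean of the 2 arrays of a pool. The L5 arrays of both Tac1 probe sets lie below all other arrays, while those of Calcb overlap with L4 and sham.

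The alpha form of CGRP also had its lowest signals in the ligated ganglion. The bright Calca probe set (M11597_at) read 801.6 and 1160.9 in L5 at 50 days and 794.7 and 613.6 at 28 days. It read 1641.7 and 1473.3 in L4 at 50 days and 1574.1 and 1518.9 at 28 days, against 1121.2 and 1464 in sham at 50 days and 1828.6 and 1402.2 at 28 days. Every L5 array was below every L4 array, but the higher L5 array of 50 days exceeded the lower sham array of that day. Means were 842.7 ± 196 in L5, 1552 ± 7.78 in L4 and 1454 ± 228 in sham (SD, n = 2 pools each). L4 and sham did not differ beyond their spread. The difference was -0.79 ± 0.20 in L5 against sham (limma, adjusted p = 0.0967) and -0.91 ± 0.20 in L5 against L4 (adjusted p = 0.0554), neither of which passed the threshold.

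The other Calca probe set (L00111unknown_S536_at) was close to the low end of the chip, with a mean signal of 38.8, just under the minimum of 39.3 that a chip A probe set needed to be tested. Its arrays read 49.5 and 53.5 in L5 at 50 days and 16.7 and 66.8 at 28 days. They read 36.2 and 37.4 in L4 at 50 days and 39.2 and 34.4 at 28 days, against 38.2 and 41.1 in sham at 50 days and 32.5 and 20.1 at 28 days. The 2 arrays of the L5 pool of 28 days differed by 1.43 on the log2 scale, the largest gap between arrays of a pool among the peptide probe sets, whose median gap was 0.20. It was not lower in L5 than in sham on either day, unlike M11597_at, and over the 6 pools both correlated at r = -0.42, a description of 6 points from the same pools. Calca transcripts are spliced to encode either calcitonin or CGRP, and no source used here states which exons each probe set reads.

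The beta form of CGRP had similar signals in L5 and sham. Calcb (M11596_at) read 510.4 and 562.8 in L5 at 50 days and 414 and 557.7 at 28 days. It read 724.5 and 554.6 in L4 at 50 days and 458.6 and 668.7 at 28 days, against 470.7 and 569.4 in sham at 50 days and 547.8 and 430.4 at 28 days. The arrays of the 3 conditions overlapped on both days. Means were 511.2 ± 35.9 in L5, 601.6 ± 53.7 in L4 and 504.6 ± 21.9 in sham (SD, n = 2 pools each), so that L5 and sham did not differ beyond their spread and L4 had the highest mean. The difference in L5 against sham was 0.02 ± 0.18 (limma, adjusted p = 0.971), with a 95% interval of -0.37 to 0.40, and in L5 against L4 it was -0.22 ± 0.18 (adjusted p = 0.516). The sign of the difference from sham turned with 2 of the scalings tried, to -0.18 after median centring and to -0.48 when arrays were scaled to the hybridisation controls. These scalings moved the median of all tested probe sets too, to -0.09 and -0.44 beside 0.04 as reported, and Calcb lay near that median in each. Calca and Calcb encode closely similar peptides, and cross-hybridisation between their probe sets was not tested.

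Somatostatin was lowest in L5 at 28 days in both its probe sets. The brighter one (M25890_at) read 427 and 747.7 in L5 at 50 days and 287.4 and 288.3 at 28 days. It read 816.7 and 688.2 in L4 at 50 days and 450.5 and 478 at 28 days, against 832.2 and 714.2 in sham at 50 days and 730.4 and 831 at 28 days. The L5 arrays of 28 days lay below all others, and the L4 arrays of 28 days lay below all sham arrays, while 1 L5 array of 50 days was inside the sham range. Means were 437.6 ± 212 in L5, 608.4 ± 204 in L4 and 777 ± 5.3 in sham (SD, n = 2 pools each). The mean of L5 lay below that of L4 by less than the SD of either.

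The dimmer Sst probe set (K02248cds_s_at) read 162 and 82.9 in L5 at 50 days and 66.6 and 28.3 at 28 days. It read 213.5 and 216 in L4 at 50 days and 135.5 and 113.7 at 28 days, against 233.1 and 218.7 in sham at 50 days and 161.4 and 124.9 at 28 days. Within each day the L5 arrays were below the sham arrays, but every condition was lower at 28 than at 50 days. Differences in L5 against sham were -0.92 ± 0.23 for M25890_at (limma, adjusted p = 0.0862) and -1.16 ± 0.25 for K02248cds_s_at (adjusted p = 0.0588). Against L4 they were -0.53 ± 0.23 (adjusted p = 0.228) and -1.04 ± 0.25 (adjusted p = 0.0717). None of these passed the threshold.

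Over the 6 tested probe sets, 5 of 6 had values below 0 in L5 against sham, with a median of -0.88 where all tested probe sets had a median of 0.04, and 1 of 6 was called. Without adjustment, 5 of 6 had a limma p under 0.05 and were lower, where 9.45% of all tested probe sets were. In L5 against L4, 6 of 6 were below 0, with a median of -0.96 beside 0.04 over all tested probe sets, and 5 of 6 had an unadjusted p under 0.05, where 10.9% of all tested probe sets were lower at that level. The count of called probe sets moved with the pools used, and so did the share of all tested probe sets called in either direction, which was 0.763% in L5 against sham and 1.27% in L5 against L4 with all pools. In L5 against sham the count became 5 without the L5 pool of 50 days (3.95% of all probe sets), the L4 pool of 50 days (2.61%) or the L4 pool of 28 days (2.59%), and 0 without the sham pool of 28 days (0.0763%). In L5 against L4 it became 5 without the L5 pool of 50 days (4.99%), 3 without the L4 pool of 50 days (1.36%), the sham pool of 50 days (1.33%) or that of 28 days (1.54%), and 0 without the L4 pool of 28 days (0.623%).

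In the neighbouring ganglion, L4 against sham, none of the 6 was called by limma, and 0% of all probe sets were. The differences ran from -0.39 ± 0.23 for Sst (M25890_at) to 0.24 ± 0.18 for Calcb, with 3 below and 3 above 0, an adjusted p of 1 for each, and 0 of 6 with an unadjusted p under 0.05, where 2.72% of all tested probe sets had one. The intervals were wide: that of Tac1 M15191_s_at ran from -0.32 to 0.66 and that of Calca M11597_at from -0.33 to 0.56. On single days, which have no test, Sst in L4 minus sham was -0.04 (M25890_at) and -0.07 (K02248cds_s_at) at 50 days, and -0.73 and -0.18 at 28 days.

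**Figure D2:**
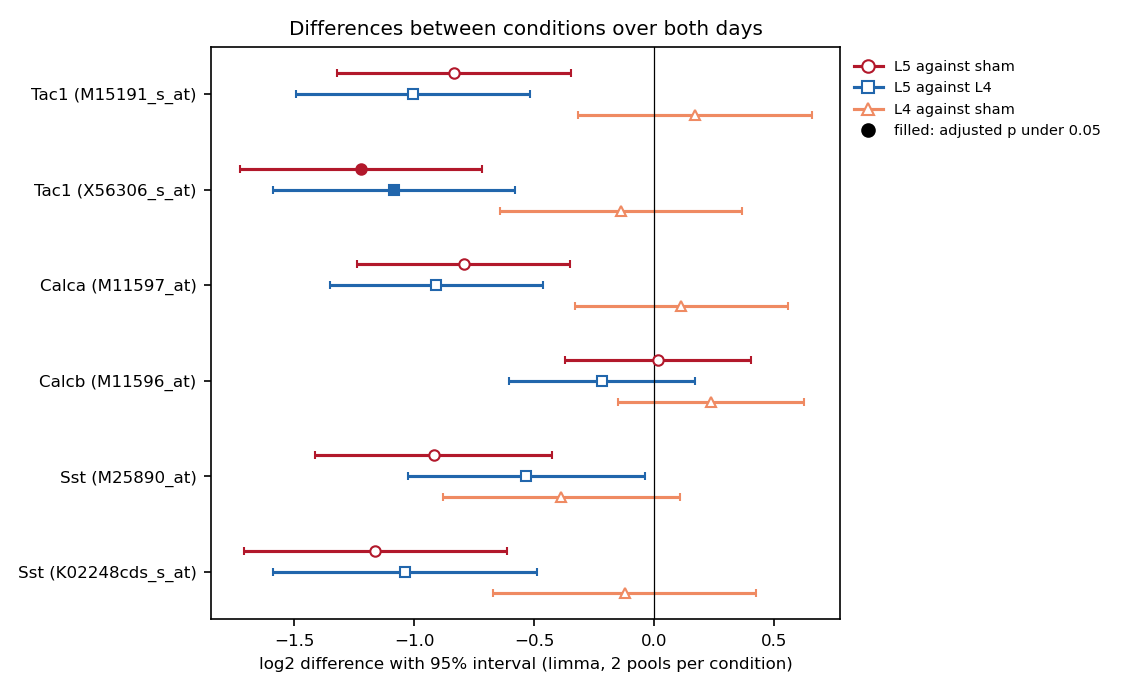
Log2 differences (horizontal axis) of the 6 tested peptide probe sets in L5 against sham, L5 against L4 and L4 against sham, with 95% intervals from limma over 2 pools per condition; filled symbols passed an adjusted p of 0.05. The Tac1, Calca and Sst probe sets lie below 0 in both L5 comparisons, Calcb lies at 0.02 in L5 against sham, and only X56306_s_at is filled.

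At each day alone there was 1 pool per condition and no test, so the following values are descriptions. At 50 days, L5 minus sham was -0.46 and -1.11 for Tac1 (M15191_s_at and X56306_s_at), -0.40 for Calca (M11597_at), 0.05 for Calcb, and -0.44 and -0.88 for Sst (M25890_at and K02248cds_s_at). At 28 days it was -1.21 and -1.33 for Tac1, -1.18 for Calca, -0.02 for Calcb, and -1.40 and -1.44 for Sst. Each of the Tac1, M11597_at and Sst probe sets had the larger difference at 28 days. Lower by more than 0.5 were 2 of 7 peptide probe sets at 50 days, where 13.8% of tested chip A probe sets were, and 5 of 7 at 28 days, where 15.9% were.

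Within L5, all 7 peptide probe sets had higher pool means at 50 than at 28 days, by 0.15 for Calcb to 1.18 for Sst K02248cds_s_at, with a median of 0.51 where all tested chip A probe sets had a median of 0.09. Sst was also higher at 50 days in L4, by 0.68 (M25890_at) and 0.73 (K02248cds_s_at). In sham the 2 Sst probe sets disagreed, at -0.02 for M25890_at and 0.62 for K02248cds_s_at. For Tac1 in L4 the values were -0.26 and -0.23. Over all conditions, none of the 6 tested probe sets was called between 50 and 28 days by limma, where 0.286% of all probe sets were, and 2 of 6, both of Sst, had an unadjusted p under 0.05, where 18.7% of all tested probe sets did. Their differences were 0.54 ± 0.18 for M25890_at (adjusted p = 0.185) and 0.85 ± 0.20 for K02248cds_s_at (adjusted p = 0.104). Without the L4 pool of 28 days, 1 of the 6 was called between days, where 2.66% of all probe sets were.

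**Figure D3:**
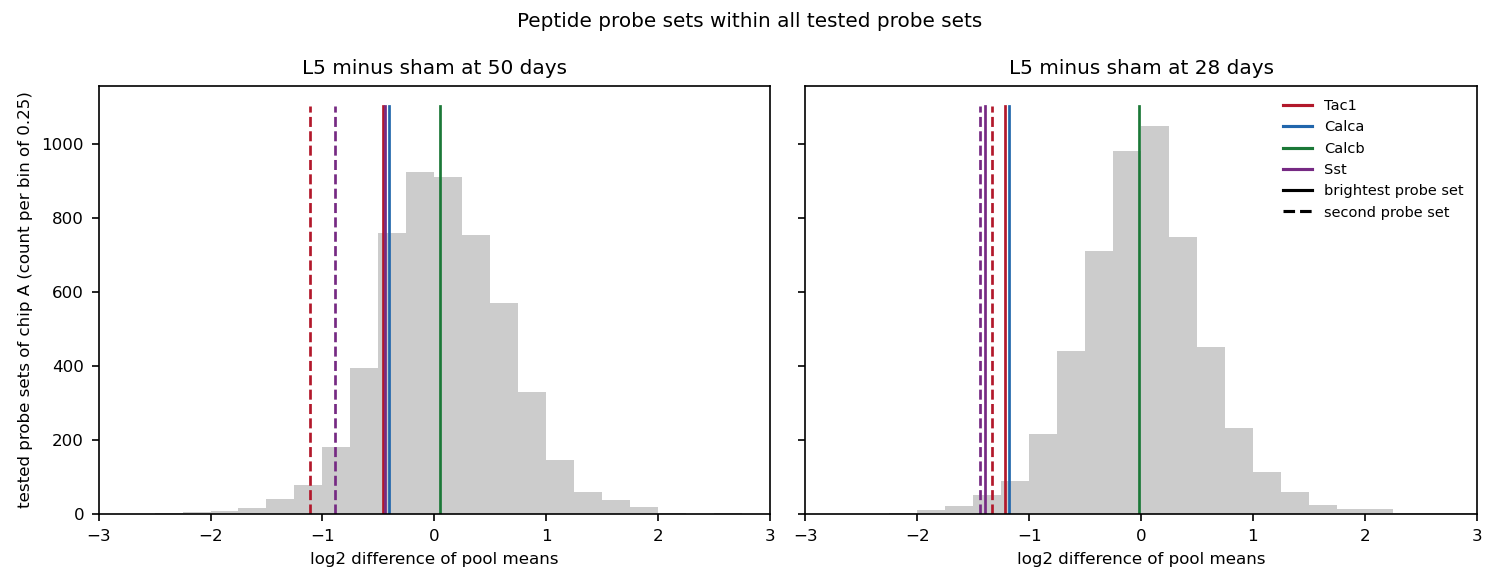
Distribution of L5 minus sham differences of pool means (horizontal axis, log2; vertical axis, number of tested chip A probe sets per bin of 0.25) at 50 and at 28 days, with the 6 tested peptide probe sets as vertical lines. At 28 days the Tac1, Calca and Sst lines lie between -1.44 and -1.18, and Calcb stays near 0 on both days.

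Probe sets of the same gene were set against each other by their differences, since signals of different probe sets have no common scale. The test was added after the data were seen, as a limma fit over 1351 pairs of probe sets, of which 1345 were pairs of the same gene. In L5 against sham the brighter minus the dimmer Tac1 probe set gave 0.39 ± 0.32 (adjusted p = 0.721), with an interval of -0.34 to 1.11. For Sst it was 0.24 ± 0.33 (adjusted p = 0.85), with an interval of -0.49 to 0.97. Neither pair was shown to differ, and the intervals allow a difference as large as the effect itself. The 2 Tac1 probe sets correlated at r = 0.94 over the 6 pools and the 2 Sst probe sets at r = 0.93, beside a median of 0.34 over same-gene pairs. These are descriptions of 6 points that share pools and ligation.

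The same fit compared genes through their brightest probe sets. In L5 against sham, Calca minus Calcb was -0.81 ± 0.33 (limma, adjusted p = 0.41) and Tac1 minus Calcb -0.85 ± 0.35 (adjusted p = 0.41). Calcb minus Sst was 0.94 ± 0.34 (adjusted p = 0.366). The intervals of these 3 excluded 0 before adjustment and the differences failed the adjusted threshold, so Calcb was not shown to respond differently from the other genes. Tac1 minus Calca was -0.04 ± 0.32 (adjusted p = 0.986), with an interval of -0.76 to 0.68.

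Genes whose pool means tracked each peptide most closely were taken from 4261 tested chip A probe sets with 1 gene, by Pearson r over the 6 pools. For Tac1 they were Snap25 (AB003991_at), a protein of synaptic vesicle fusion (r = 0.989), Prdx3, a mitochondrial peroxidase (r = 0.988), and Scg2, a secretogranin of dense-core vesicles (r = 0.984). The brightest Snap25 probe set, on chip B (rc_AA943153_at), was not among the candidates and differed. Its L5 minus sham was -0.633 at 50 days and 0.085 at 28 days, beside -0.455 and -1.214 for Tac1 (M15191_s_at). For Calca they were Eif2b3, part of a translation initiation factor (r = 0.993), Hadhb, an enzyme of fatty acid oxidation (r = 0.993), and Mark1, a microtubule-affinity kinase (r = 0.991). For Sst they were P2rx6, an ATP-gated channel subunit (r = 0.988), the keratin Krt14 (r = 0.983) and Trh, the precursor of thyrotropin-releasing hormone (r = 0.983). For Calcb they were Cdc37, a kinase co-chaperone (r = 0.965), Prpsap1 (r = 0.95) and the lipoprotein-binding Hdlbp (r = 0.946). With 6 points high values are common: 163 candidates exceeded 0.9 with Tac1, 164 with Calca, 58 with Sst and 19 with Calcb. Among the peptides, Tac1 (M15191_s_at) and Calca (M11597_at) correlated at r = 0.97, Tac1 and Sst (M25890_at) at 0.72, and Calcb with these 3 at 0.36 to 0.49.

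The receptors were mostly too dim to test. Of 6 other tachykinin genes 4 were on the arrays and 0 were tested, and mean signals were 21.3 for Tacr1, the substance P receptor, 34.6 for Tacr2, 37.3 for Tacr3 and 9.26 for Tac3. Of 6 other somatostatin genes, Sstr4, an inhibitory somatostatin receptor, was the only one tested. It read 143.2 and 120.5 in L5 at 50 and 28 days, 100.3 and 51.85 in L4 and 80.75 and 62.9 in sham. L5 had the highest value on each day, and the difference from sham was 0.77 ± 0.29 (limma, adjusted p = 0.205). Of 9 calcitonin family genes 6 were tested and 0 were called in any comparison, with a median of 0.24 in L5 against sham. Calcrl, the receptor to which CGRP binds, was at 0.35 ± 0.34 and Ramp1, the accessory protein that makes it a CGRP receptor, at 0.33 ± 0.24. By day, L5 minus sham at 50 and 28 days was 0.54 and 0.17 for Calcrl and -0.05 and 0.70 for Ramp1. Iapp, the amylin precursor, was at -0.38 ± 0.33.

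Of the enzymes that process peptide precursors, 3 of 4 were tested, and all 3 had values below 0 in L5 against sham. Pcsk2, a convertase that cleaves precursors, had 89.3 and 47.45 in L5 at 50 and 28 days, 149.1 and 136.3 in L4 and 158.8 and 116.6 in sham. The L5 pools were the lowest on each day. In L5 against L4, Pcsk2 fell by 1.28 ± 0.27 (limma, adjusted p = 0.0467), where 1.01% of all tested probe sets were called lower. This call was not followed over the alternative settings, and the L5 signal of 28 days lay near the chip A minimum of 39.3. In L5 against sham the value of Pcsk2 was -1.22 ± 0.27 (adjusted p = 0.0623). In L5 against sham, Cpe, which trims the cleaved peptides, was at -0.51 ± 0.18 (limma, adjusted p = 0.186). Pam, which amidates substance P and CGRP, was at -0.50 ± 0.22 (adjusted p = 0.284). Single days had no test. L5 minus sham at 50 and 28 days was -1.07 and -1.37 for Pcsk2 and -0.51 and -0.50 for Cpe. For Pam it was -0.85 and -0.14, unlike Tac1, Calca (M11597_at) and Sst, whose larger difference was at 28 days.

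None of the 5 peptide-degrading enzymes was called in any comparison. Mme (neprilysin) was at 0.47 ± 0.19 in L5 against sham, Dpp4 at 0.50 ± 0.28 and Ace at -0.58 ± 0.38. Of 14 trophic and transcription factors 8 were tested and 0 called in any comparison, with a median of -0.41 in L5 against sham. Isl1, a homeodomain factor of sensory neurons, was at -0.78 ± 0.20 (limma, adjusted p = 0.0995), and Drgx, another homeodomain factor of these neurons, at -0.74 ± 0.20 (adjusted p = 0.112). Ret, the signalling receptor for the GDNF family, was at -0.62 ± 0.17 and Ngfr, the low-affinity neurotrophin receptor, at -0.59 ± 0.17.

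**Figure D4:**
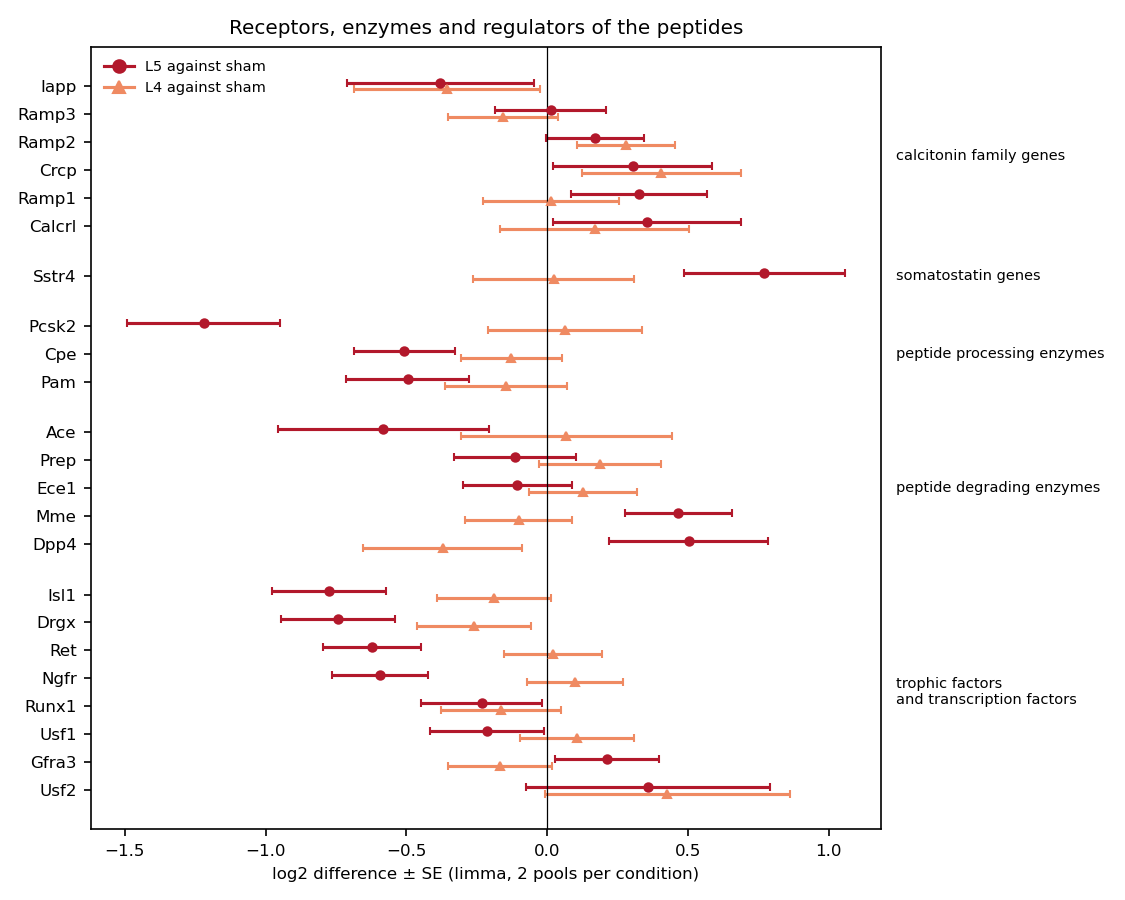
Log2 differences ± SE (horizontal axis, limma, 2 pools per condition) of tested receptors, processing and degrading enzymes and regulators, in L5 against sham (circles) and L4 against sham (triangles). Pcsk2 lies lowest in L5 against sham at -1.22, Sstr4 highest at 0.77, and none of these genes was called against sham.

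Marker lists of cell types were read beside the peptides. All 9 tested general neuronal markers had values below 0 in L5 against sham, with a median of -0.27, 0 called by limma and 4 with an unadjusted p under 0.05. Their summed signal was 24490.8 and 23698 in L5 at 50 and 28 days, 30888 and 29156.3 in L4 and 35793.9 and 25563.4 in sham. Such sums add probe sets without a common scale and mostly follow the brightest ones, so they do not measure an amount of cells. Of 4 tested markers of peptidergic nociceptors 1 was called in L5 against sham, the sodium channel gene Scn10a, which fell by 1.34 ± 0.22 (limma, adjusted p = 0.024), while the heat-gated channel gene Trpv1 was at -0.37 ± 0.28 (adjusted p = 0.518) and Prph at -0.24 ± 0.18 (adjusted p = 0.528). Gfra3, the artemin receptor subunit, was above 0, at 0.21 ± 0.18 (limma, adjusted p = 0.589). The summed signal of these 4, at 50 and 28 days, was 4192 and 4429 in L5. It was 5420.4 and 5090.6 in L4 and 5084.8 and 5255.7 in sham. Prph alone read 3476 and 3742 in L5, so this sum mostly followed Prph. Sodium channel genes of other neuron lists were called in L5 against sham too. Scn11a, 1 of 5 tested markers of non-peptidergic nociceptors, fell by 1.38 ± 0.19 (limma, adjusted p = 0.0152). Scn1a, 1 of 8 tested markers of large-diameter neurons, fell by 1.35 ± 0.23 (limma, adjusted p = 0.0296). Each was the only gene of its list called in this comparison. The non-peptidergic list had a median of -0.355, with 1 of 5 above 0. The large-diameter list had a median of -0.196, with 2 of 8 above 0. By limma, 0 of 4 satellite glia and 0 of 5 Schwann cell markers were called, and 1 and 2 had an unadjusted p under 0.05. These were Fabp7 at -0.87 ± 0.31 among satellite glia markers, and S100b at -0.47 ± 0.19 and Mag at 0.63 ± 0.21 among Schwann cell markers. Below 0 were 3 of 4 satellite glia markers, and above 0 were 4 of 5 Schwann cell markers.

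All 6 tested macrophage markers had values above 0 in L5 against sham. By limma 0 were called, where 0.229% of all tested probe sets were called higher, and 2 had an unadjusted p under 0.05. The sum of the 6 was highest in the L5 pool of 28 days: 1251.2 and 2377.2 in L5 at 50 and 28 days, 950.5 and 981.4 in L4 and 999.6 and 1056.4 in sham. All 5 tested skeletal muscle markers were above 0 as well, and Tpm2 rose by 1.16 ± 0.21 (limma, adjusted p = 0.0465). Their sum was 1418.9 and 2645.9 in L5 at 50 and 28 days, 1251.3 and 1014.4 in L4 and 1205.8 and 527.8 in sham. Acta1 alone read 441.2 and 1490 in L5 on these days. The L5 pool of 28 days, where Tac1, Calca (M11597_at) and Sst were lowest, had the highest macrophage and muscle sums, and the part of these markers in the peptide differences was not tested.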

How the data were processed

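The authors deposited 1 linear intensity per probe set and array, computed by MAS5 according to the submitters' processing notes, with no version stated in the sources used here. The trimmed mean of each array (highest and lowest 2% left out) lay between 150.07 and 150.21. Medians of the chip A arrays still ran from 50.6 to 72.8, so equal trimmed means did not make the arrays equal in their middle range. The number of arrays limits the precision; detection calls were not used here, and 0 columns of the tables were left unused. Chip A signals were set to a common trimmed mean and transformed to log2(signal + 12.8), the pseudocount being the 20th percentile of the chip type. Control probe sets and those whose mean fell below the 40th percentile of the chip were left out, which left 15721 of 26379. The 2 arrays of a pool, which share RNA, were averaged. limma 3.58.1 in R 4.3.3 (lmFit, eBayes with intensity trend) modelled the 6 pools of each chip type by condition and day, with Benjamini-Hochberg adjustment over all 3 chip types at 0.05. Array numbers did not pair pools: of 15 pool pairs, correlations of same-numbered deviations ran from -0.10 to 0.11 and 1 exceeded 0.1.

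Scripts were tested on simulated data. One chip B sham array has a title of 28 days and a description of 50 days; the title was used, and it touches the peptides only through the adjustment over all probe sets. The peptide genes and the lists were chosen with earlier results of these data known. The rule for named genes took every probe set of the 4 peptides, the 3 genes with the highest r to the brightest probe set of each, and up to 4 genes of a list: those called, by adjusted p, then those with the largest L5 against sham difference, each by its brightest tested probe set. The dim tachykinin genes were named after their values were seen. Alternatives covered normalization, pseudocount, filter, intensity trend, single arrays, 12-array fits, the chip B array and leaving out each pool. Gene names came from the platform annotation.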

Additional observations from a re-analysis of the deposited data

Results flagged for a closer look

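The dim Calca probe set (L00111unknown_S536_at) had L4 minus sham differences of opposite sign on the 2 days. Arrays of the conditions did not overlap on either day, though at 50 days only 37.4 in L4 and 38.2 in sham separated them. Its L4 mean was 36.8 on both days, whereas its sham mean was 39.65 at 50 days and 26.3 at 28 days. With 2 arrays each, L4 and sham arrays were apart for 4 of 7 peptide probe sets at 50 days and 3 of 7 at 28 days. The share over all tested probe sets is not given here. L4 minus sham was -0.08 on the log2 scale at 50 days and 0.36 at 28 days. The difference between the days was not tested, and this probe set lay under the minimum signal for testing.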

How the results depend on the processing

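Over 19 alternatives the Tac1, Calca (M11597_at) and Sst values in L5 against sham and in L5 against L4 stayed below 0, whereas the number called moved. In L5 against sham, 1 of 6 probe sets was called as reported. It was 0 with quantile normalization (0.274% of all tested probe sets called), no filter (0.118%) or no intensity trend (0.0191%). With the first (0%) or the second (0.0127%) array of each pool alone it was 0 as well. It was 2 with the filter at the 60th percentile (1.43%). It was 5 with median centring (2.63%), hybridisation-control scaling (18.8%) or 12 arrays with the pool as a random block (7.09%). The 12-array fits take the 2 arrays of a pool, which share RNA, as separate observations in a block. In L5 against L4, 1 as reported, it was 0 under those same settings that gave 0, where 0% to 0.375% of all were called. It was also 0 with the pseudocount at the 40th percentile (1.11%) and without the chip B array of differing labels (0.922%). It was 2 with the filter at the 60th percentile (1.96%) and 4 with median centring (4.33%) or 12 arrays (8.83%). With hybridisation-control scaling it was 6, where 42.9% of all tested probe sets were called. With the array number as a replicate block in the 12-array fit, 5 peptide probe sets were called in L5 against sham (6.21% of all). In L5 against L4 the number was 4 (7.54%), and between days it was 1 (5.06%). Without that block the peptide numbers were the same, and 6.56% of all were called between days. Leaving out a pool gave 0 to 5 in L5 against sham, 0 to 5 in L5 against L4 and 0 to 1 between days. A condition then had 1 pool, which was assumed to vary like the others. None was called in L4 against sham under any setting.

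Signs turned only for values whose adjusted p was above 0.2. Calcb in L5 against sham became -0.18 with median centring, -0.48 with hybridisation controls and -0.14 with first arrays, and ran from -0.024 to 0.058 when a pool was left out. In L4 against sham, X56306_s_at became 0 with hybridisation controls and 0.034 with second arrays, and K02248cds_s_at became 0.008 with hybridisation controls. With a pool left out, values in L4 against sham ran from -0.102 to 0.441 for M15191_s_at, -0.451 to 0.174 for X56306_s_at, -0.163 to 0.39 for M11597_at, -0.798 to 0.027 for M25890_at and -0.289 to 0.043 for K02248cds_s_at. Between days, M15191_s_at became -0.027 and M11597_at -0.083 with median centring, and M11597_at became -0.209 and X56306_s_at -0.025 with first arrays. With a pool left out, they ran from -0.175 to 0.287 for M15191_s_at and from -0.155 to 0.234 for M11597_at. The cause was not tested. Over all probe sets, 120 were called in L5 against sham as reported, and 0 (first arrays alone) to 2951 (hybridisation controls) under the alternatives. The median of all probe sets in L5 against sham was 0.04 as reported, -0.09 with median centring and -0.44 with hybridisation controls, so the larger counts under these scalings stand on a shifted baseline. With 1 pool per condition and day, differences between days within a condition have no test, and signals near the chip minimum, as for the dim Calca probe set, limit what can be read.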
